A study of Rattus norvegicus with 6 samples.

Results

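Transcripts of the mitochondrial protein import machinery were followed in heart tissue of adult male Wistar rats, an outbred strain, after repeated doxorubicin. Members were taken by gene symbol: every symbol made of Timm or Tomm and a number, plus Samm50, Pmpca, Pmpcb, Grpel1, Pam16, Mtx1, Mtx2, Chchd4 and Gfer. This gave 30 of the 17487 symbols in the count table. The doxorubicin group was 3 rats dosed through the tail vein with the hydrochloride of the drug, an anthracycline used in chemotherapy, at 3.75 mg/kg once a week over 4 weeks, and the control group was 3 rats given 0.9% saline the same way. Each rat gave 1 library, the labels name no engineered allele, and the drug was given to the whole animal. The labels do not say which part of the heart was taken or how long after the last dose.

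Nearly all mitochondrial proteins are encoded in the nucleus, made in the cytosol and imported. They enter through the TOM complex of the outer membrane, and then part ways: barrel proteins go to the SAM complex, cysteine-rich proteins of the intermembrane space to a disulfide relay, metabolite carriers through the small TIM chaperones to the TIM22 complex, and proteins with a cleavable presequence to the TIM23 complex, its matrix motor and the processing peptidase. Heart muscle is among the tissues richest in mitochondria, and anthracyclines are known to damage cardiac mitochondria.

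Promoters of these genes are known for matches to the nuclear respiratory factors NRF1 and GABP, the second an Ets-family factor also called NRF2. The stretches shown here, from RefSeq on GRCr8, were picked from members with a match, and let a reader see such matches beside the expression values. Promoters were matched for 28 of the 30 members, and the 250 bases before the annotated start were searched on both strands for GCGCANGCG (core of the NRF1 motif), CCGGAAG (Ets, GABP) and TCAAGGTCA (the estrogen-related receptors, regulators of mitochondrial genes in heart). Capitals mark the matches, and all stretches read 5′ to 3′ on the strand of the gene.
Pam16, chr10:11449443-11449481 (plus strand): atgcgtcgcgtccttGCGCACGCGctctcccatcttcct
Chchd4, chr4:125534640-125534768 (minus strand): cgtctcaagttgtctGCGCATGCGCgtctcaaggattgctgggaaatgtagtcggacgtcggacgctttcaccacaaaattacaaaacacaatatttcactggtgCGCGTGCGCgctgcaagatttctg
Tomm20, chr19:71832427-71832538 (minus strand): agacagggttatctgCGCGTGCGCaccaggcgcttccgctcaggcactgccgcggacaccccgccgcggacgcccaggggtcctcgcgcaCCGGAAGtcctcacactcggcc
Timm10, chr3:90315067-90315135 (plus strand): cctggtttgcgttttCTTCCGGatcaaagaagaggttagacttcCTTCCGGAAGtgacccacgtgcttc
Timm8b, chr8:59850583-59850704 (plus strand): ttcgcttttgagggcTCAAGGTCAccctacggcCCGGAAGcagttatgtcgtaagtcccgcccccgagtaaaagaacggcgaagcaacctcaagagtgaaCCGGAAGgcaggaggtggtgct

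The Pam16 stretch holds an NRF1 match that ends 26 bases before the start, and Chchd4 holds NRF1 matches at a pair of places, the upper one on both strands. Tomm20 holds an NRF1 and an Ets match, as does Grpel1. In Timm10, overlapping Ets matches on opposite strands lie 19 to 28 bases before the start, with another further upstream. Timm8b is the only member with a match to the estrogen-related receptor motif, and it has a pair of Ets matches as well. The NRF1 motif was present in 6 of the 28 member promoters (21.4%), in 5.53% of 27457 RefSeq promoters of the same length, and in 12.8% of the 7390 promoters of symbols tested in these hearts. The Ets motif was present in 12 of the 28 (42.9%), against 7.74% and 16.5%. The receptor motif was present in 1 of the 28 (3.57%), against 0.368% and 0.189%. Mtx1 and Timm13, with log2 fold changes of -0.38 and -0.45 in the comparison below, held no match to any of the motifs. A match describes the letters only, and no binding was measured here.

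Libraries held between 2219685 and 3508282 counts. Levels are given in CPM, counts scaled to a common library total by TMM, and 3 counts, taken as the detection floor, correspond to 0.855 to 1.35 CPM. Control library 1 stood apart from the other libraries on the first principal component, at -43.3 against -4.83 to 26.6. Its summed erythroid and blood markers, of which Alas2 was at 0 in all libraries, were 7434 CPM, against 2040 and 2571 CPM in control libraries 2 and 3 and 701 to 2735 CPM in doxorubicin libraries. The hemoglobin genes Hba-a1 and Hba-a2 made up most of the sum in control library 1, at 4150 and 1879 CPM. Slc4a1 went the other way, at 39.3 CPM in control library 1 against 46.2 and 52.3 CPM in control libraries 2 and 3. All 8 cardiomyocyte markers, among them the troponin and myosin genes of the contractile apparatus, were detected, and their sum was 107034 to 122913 CPM in control and 89999 to 101264 CPM in doxorubicin hearts. Myh6 had the largest fall in level, from a mean of 24591 CPM for controls to 14821 CPM after the drug. Log2 fold changes were below 0 for 7 of the 8 (47.9% of all symbols), and Pln was at 0.17. The lowest was -1.62 for Ryr2 (Benjamini-Hochberg adjusted p 0.0440 in edgeR's quasi-likelihood test), and Myl2 was at -0.02. Groups did not overlap for 3 of the 8, each lower in doxorubicin, against 7.06% of all symbols in that direction. Macrophage markers, with 9 of 9 detected, had sums of 261 to 273 CPM for controls, against 315 to 518 CPM after doxorubicin. The highest of them was Lyz2, with a mean of 97.3 CPM for controls against 172 CPM after the drug. The groups overlapped for all of these markers except Lyz2 and Mrc1. Log2 fold changes were above 0 for 8 of the 9, and Adgre1 was at -0.15. Sums of fibroblast, endothelial, and smooth muscle and pericyte markers overlapped between the groups, and lymphocyte markers summed to at most 7.95 CPM in any library. Adipocyte markers summed to 814 to 1079 CPM in control and 651 to 750 CPM in doxorubicin hearts, nearly all of it Fabp4, with Cidec at 0. Adipoq had at most 7 counts and Plin1 at most 1 in any library, so this sum describes Fabp4 and says little of adipocytes. The part of these marker differences in the results below was not tested. In bulk tissue, fewer cells of a type and less RNA per cell cannot be told apart.

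No import transcript changed past the threshold after doxorubicin, and the intervals left little room for a large change. Of the 30 members, 26 passed the filter on low counts and 0 of them had a Benjamini-Hochberg adjusted p under 0.05 in edgeR's quasi-likelihood test, where 0.0543% of the 9205 symbols tested did. The count was also 0 in DESeq2, which called 0.567% of its symbols, and in limma voom, which called 0, and 0 members had an unadjusted p under 0.05 in edgeR, against 8.10% of all symbols. Adjusted p-values of the members in edgeR ran from 0.615 to 0.985. The 95% interval of the fold change lay within a 2-fold change either way for 26 of 26 members (70.3% of all symbols), and within a 1.5-fold change for 12 of 26 (21.5% of all symbols). The lowest bound over the members was 0.508-fold, for Pam16, and the highest was 1.65-fold, for Gfer.

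Log2 fold changes (log2 changes in what follows) were below 0 for 20 of the 26 members and for 47.9% of all symbols, with a median of -0.14 over the members and 0.02 over all symbols. With scaling by library size only, 14 of the 26 were below 0 and the medians were -0.05 and 0.10. This lean rested largely on control library 1, which was the highest of the 3 controls for 20 of the 26 members and for 39.3% of all symbols. Without that library 15 of the 26 members were below 0 (46.8% of all symbols), the median was -0.03, and 0 members had an unadjusted p under 0.05 (5.61% of all symbols). All member levels added up to 3864, 3188 and 3091 CPM in controls 1, 2 and 3, and to 3354, 2974 and 2841 CPM in the doxorubicin libraries in the same order. Those sums overlapped between the groups, and control library 1 was the highest of all 6.

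**Figure D1:**
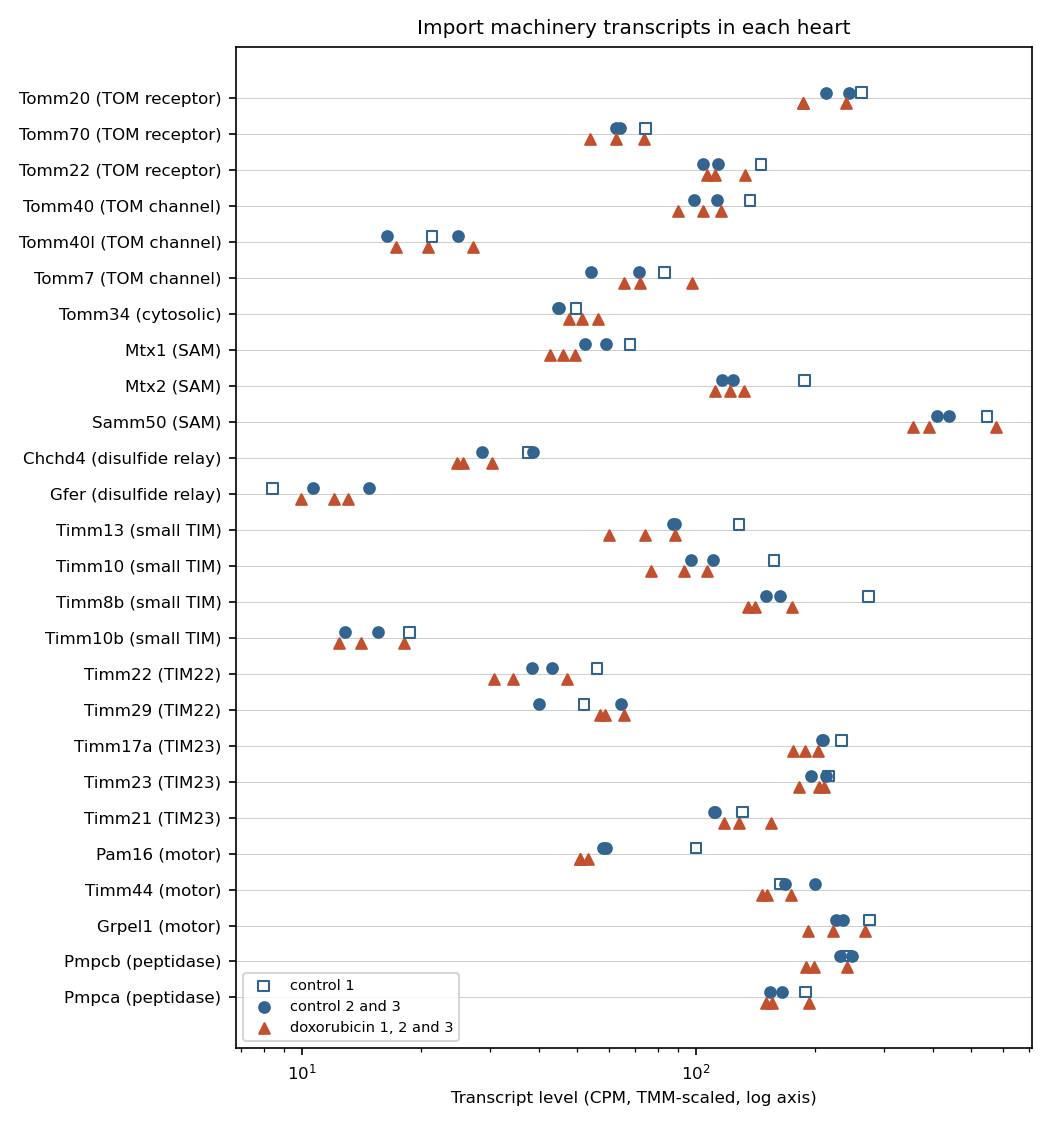
Level of each of the 26 tested import transcripts in each heart (CPM, TMM-scaled, log axis), with squares for control library 1, circles for the other controls and triangles for the doxorubicin libraries. Control library 1 is the highest control for 20 of the 26, and the groups overlap for 23 of the 26.

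Mtx1, Pam16 and Timm17a, 3 of the 26 members, had all doxorubicin values below all control values, and for no member was it the reverse. Among all symbols 13.4% had groups that were fully apart, 7.06% in that direction, so the members lie near that background.

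The largest difference in size was that of Pam16, a regulatory subunit of the matrix motor that pairs with a J-domain protein on the TIM23 complex. Pam16 was at 100.045, 58.2 and 59.1 CPM in controls 1, 2 and 3, the order used throughout, and at 50.7, 50.9 and 53.3 CPM in doxorubicin libraries. The doxorubicin hearts lay close together just under the pair of lower controls, and control library 1 was far above the rest. The fitted log2 change was -0.49 (SE 0.23, adjusted p 0.615 in edgeR), and -0.18 without control library 1. Timm44, which ties the motor's Hsp70 to the channel, was at 163, 201 and 168 CPM in control and 151, 174 and 147 CPM in doxorubicin libraries, a log2 change of -0.17 (SE 0.18). Grpel1, the nucleotide exchange factor of the motor, was at 276, 227 and 237 CPM in control and 269, 222 and 192 CPM in doxorubicin libraries, a log2 change of -0.11 (SE 0.19). Both overlapped between the groups, and for Timm44 the highest value belonged to control library 2. The log2 change without control library 1 was -0.22 for Timm44 and -0.02 for Grpel1.

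Small TIM chaperones carry hydrophobic precursors across the intermembrane space, Timm9 with Timm10 for carriers and the Timm8 proteins with Timm13 for a narrower set. All 4 tested members of the group, Timm8b, Timm10, Timm10b and Timm13, had their highest level in control library 1. Timm13 was at 129, 88.4 and 87.5 CPM in control and at 74.1, 88.3 and 60.1 CPM in doxorubicin libraries. Doxorubicin library 2 was level with the pair of lower controls, and the other doxorubicin hearts were under them. The log2 fold change of Timm13 was -0.45 (SE 0.21, adjusted p 0.615 in edgeR), and -0.24 without control library 1.

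Timm10 was at 158, 97.3 and 110 CPM in control and 107, 93.3 and 76.9 CPM in doxorubicin libraries. Its fitted log2 change was -0.40 (SE 0.21, adjusted p 0.666 in edgeR), and -0.17 without control library 1. Timm8b was at 274, 163 and 151 CPM in control and 141, 136 and 176 CPM in doxorubicin libraries, with doxorubicin library 3 above a pair of controls. Its log2 fold change of -0.38 (SE 0.23) shrank to -0.05 without control library 1, which was 1.75 times the mean of the other controls. Timm10b, a small TIM bound to the TIM22 complex, rested on 29 to 58 counts per library and showed a log2 change of -0.09 (SE 0.28), which turned to 0.06 without control library 1. The Ets-rich promoters of Timm10 and Timm8b shown above thus belong to transcripts with no change past the threshold.

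Among the outer membrane receptors, Tomm20, which binds presequences, was at 263, 245 and 214 CPM in control and 240, 187 and 187 CPM in doxorubicin libraries. Doxorubicin library 1 lay within the controls and the other doxorubicin hearts lay under them. The fitted log2 change was -0.23 (SE 0.18, adjusted p 0.782 in edgeR). Tomm22, a receptor that also organizes the complex, was at 146, 104 and 114 CPM in control and 107, 133 and 112 CPM in doxorubicin libraries, a log2 change of -0.05 (SE 0.19). Tomm70, the receptor for carriers handed over by cytosolic chaperones, was at 74.5, 64.0 and 62.8 CPM in control and 53.9, 62.7 and 73.7 CPM in doxorubicin libraries, a log2 change of -0.08 (SE 0.19). For both receptors the groups overlapped, and doxorubicin library 1 was the lowest of all 6 for Tomm70. Without control library 1 the log2 change was -0.16 for Tomm20, 0.11 for Tomm22 and 0.01 for Tomm70.

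Tomm40, the barrel that forms the channel, was at 137, 98.6 and 113 CPM in control and 104, 116 and 90.2 CPM in doxorubicin libraries, a log2 change of -0.17 (SE 0.19). Tomm7, a small subunit that tunes the assembly of the complex, was at 83.2, 54.2 and 71.6 CPM in control and 97.6, 72.1 and 65.7 CPM in doxorubicin libraries, a log2 change of 0.17 (SE 0.22). Tomm34, a cytosolic cochaperone that binds precursors with Hsp70 and Hsp90, was at 49.6, 44.9 and 44.6 CPM in control and 51.4, 47.7 and 56.3 CPM in doxorubicin libraries, a log2 change of 0.16 (SE 0.19). For Tomm34, doxorubicin library 2 lay between the controls and the other doxorubicin hearts lay above them. Without control library 1 the log2 change was -0.03 for Tomm40, 0.32 for Tomm7 and 0.22 for Tomm34. Tomm40l, a paralogue of the channel, rested on 54 to 92 counts per library and showed a log2 change of 0.07 (SE 0.27).

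The balance within a paralogue pair does not depend on scaling between libraries. The Tomm40l share of Tomm40l and Tomm40 counts was 13.5%, 20.1% and 12.7% in control and 14.3%, 15.3% and 23.1% in doxorubicin libraries. The highest share, in doxorubicin library 3, had a Wilson 95% interval of 19.2% to 27.5%, and that of control library 2 was 15.9% to 25.3%. The mean was 15.4% ± 4.09 in control and 17.6% ± 4.84 in doxorubicin hearts (SD, n = 3), with a 2-sided exact permutation p of 0.5, where 0.1 is the smallest possible. Grpel2, the paralogue of Grpel1, took 3.64% ± 0.627 of the pair's counts in control and 4.62% ± 1.40 in doxorubicin hearts (SD, n = 3, 2-sided exact permutation p of 0.3). Both adjusted p-values over these pairs were 0.5 by the same exact permutation test, and the shares overlapped between the groups.

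In the SAM complex, Mtx1, a metaxin that receives barrel precursors, was at 68.0, 52.4 and 59.1 CPM in control and 42.7, 49.3 and 46.0 CPM in doxorubicin libraries. All doxorubicin hearts were under all controls, the nearest pair being 49.3 and 52.4 CPM. The fitted log2 change was -0.38 (SE 0.20, adjusted p 0.644 in edgeR), and -0.28 without control library 1. Its partner Mtx2 was at 188, 124 and 116 CPM in control and 133, 122 and 112 CPM in doxorubicin libraries. Mtx2 showed a log2 change of -0.23 (SE 0.21) that became 0.03 without control library 1. Samm50, the barrel at the core of the complex, was at 548, 439 and 410 CPM in control and 577, 391 and 356 CPM in doxorubicin libraries. Its highest and lowest values were both in doxorubicin hearts, and the log2 change came to -0.08 (SE 0.21), or 0.06 without control library 1.

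The disulfide relay consists of Chchd4, which oxidizes incoming cysteine-rich proteins, and Gfer, the sulfhydryl oxidase that recharges it. Chchd4 was at 37.4, 38.7 and 28.7 CPM in control and 24.7, 30.3 and 25.6 CPM in doxorubicin libraries. Only control library 3 and doxorubicin library 2 crossed between the groups. The fitted log2 change was -0.37 (SE 0.22, adjusted p 0.707 in edgeR), and -0.31 without control library 1, so that library moved it little. Gfer rested on 22 to 52 counts per library, and control library 1 was its lowest value, at 8.40 CPM. Its fitted log2 change was 0.04 (SE 0.32), and -0.13 without control library 1.

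For the carrier route, Timm22, the inner membrane channel, was at 56.1, 43.1 and 38.3 CPM in control and 47.2, 34.3 and 30.7 CPM in doxorubicin libraries. Doxorubicin library 1 lay within the controls, and the others lay under them. The fitted log2 change was -0.29 (SE 0.23, adjusted p 0.782 in edgeR), and -0.11 without control library 1. Timm29, which stabilizes that complex and contacts TOM, was at 51.9, 64.4 and 40.0 CPM in control and 65.5, 58.7 and 57.2 CPM in doxorubicin libraries. This was the highest log2 fold change of any member, 0.22 (SE 0.21, adjusted p 0.826 in edgeR), and control library 2 was nearly level with the highest doxorubicin heart.

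For the presequence route, Timm23, the channel-forming subunit, was at 217, 196 and 213 CPM in control and 183, 205 and 212 CPM in doxorubicin libraries. With 441 to 751 counts per library it was among the most precisely measured members, and its log2 fold change of -0.06 had a 95% interval from -0.43 to 0.30. Timm17a, its structural partner, was at 234, 211 and 209 CPM in control and 204, 189 and 177 CPM in doxorubicin libraries. The groups did not overlap, and the log2 change came to -0.20 (SE 0.17, adjusted p 0.802 in edgeR). Timm21, which links TOM to TIM23, was at 131, 111 and 112 CPM in control and 155, 118 and 129 CPM in doxorubicin libraries, a log2 change of 0.18 (SE 0.18). Leaving out control library 1 gave log2 changes of -0.03 for Timm23, -0.14 for Timm17a and 0.27 for Timm21.

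The processing peptidase cuts presequences in the matrix. Pmpca, its non-catalytic subunit, was at 190, 166 and 154 CPM in control and 194, 150 and 156 CPM in doxorubicin libraries, a log2 change of -0.03 (SE 0.18). Pmpcb, its catalytic subunit, was at 241, 249 and 231 CPM in control and 241, 190 and 199 CPM in doxorubicin libraries, a log2 change of -0.19 (SE 0.18). For Pmpcb the controls were tightly grouped, and doxorubicin library 1 lay among them. Leaving out control library 1 gave log2 changes of 0.07 for Pmpca and -0.19 for Pmpcb.

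**Figure D2:**
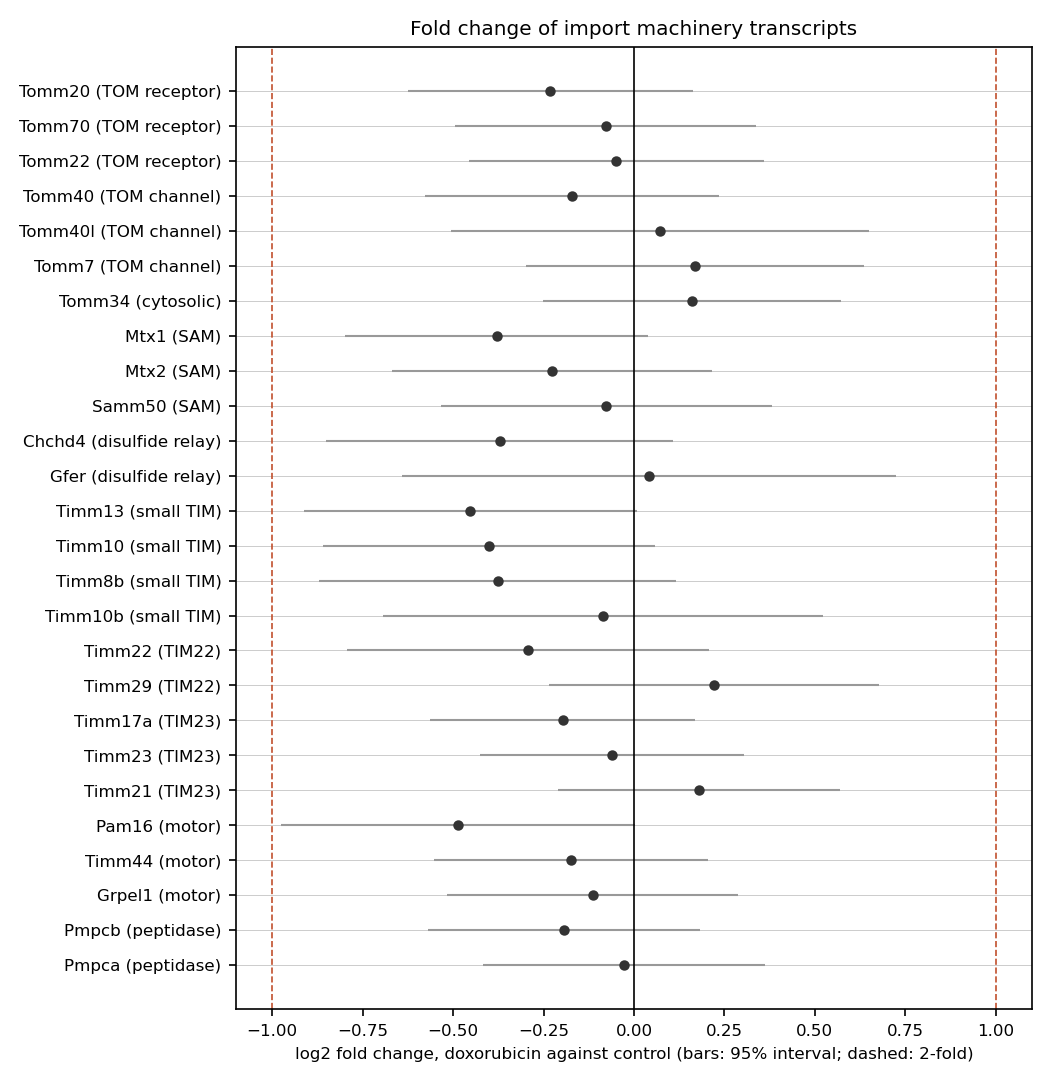
Log2 fold change of doxorubicin against control for the 26 tested import transcripts, with 95% intervals as bars and dashed lines at a 2-fold change. Every bar crosses 0 and every bar ends inside the dashed lines.

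**Figure D3:**
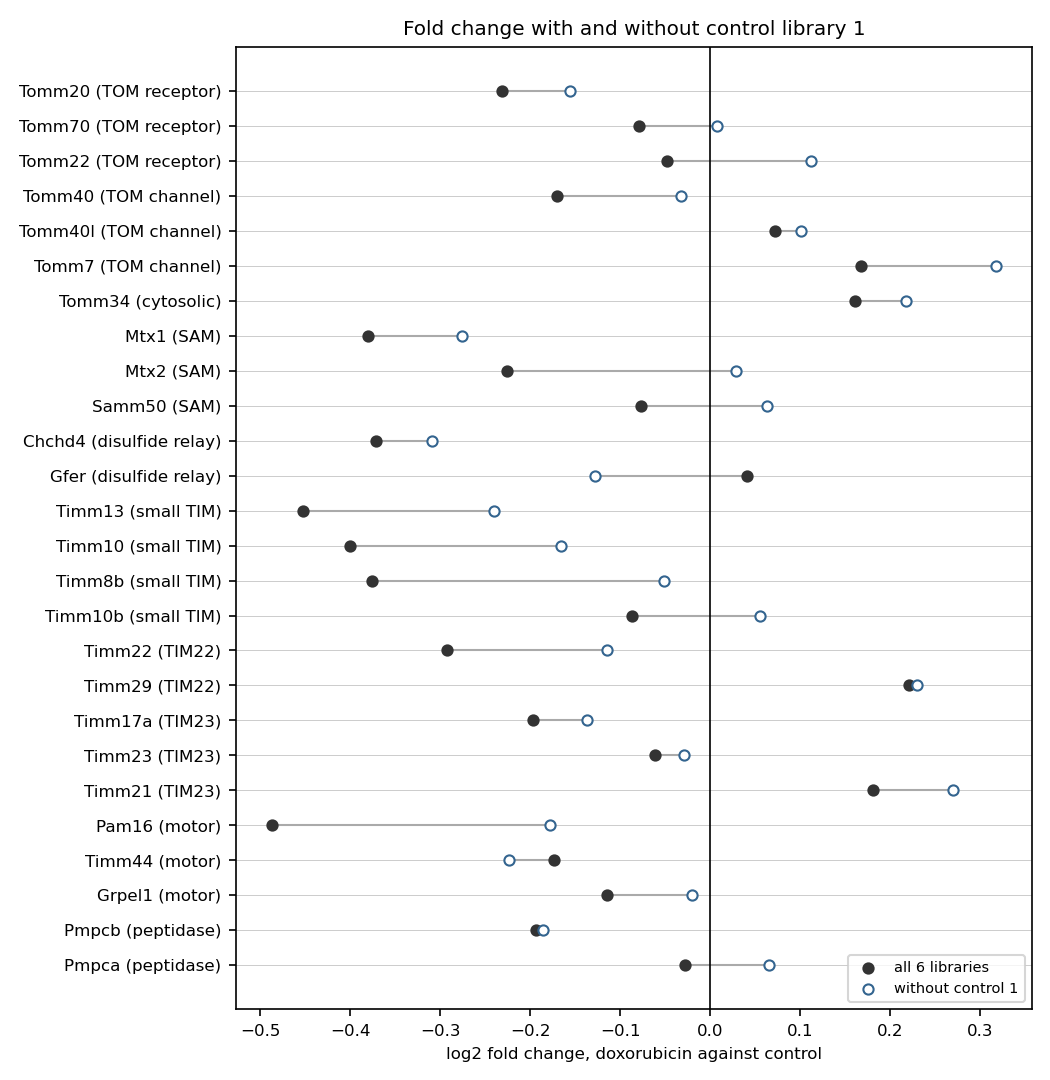
Log2 fold change of each tested import transcript with all 6 libraries (filled) and without control library 1 (open). The open points lie closer to 0 for the small TIM chaperones and Pam16, and 7 members change sign.

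The members with a 0 in the table need care. Timm17b, Timm8a1, Timm8a2 and Timm9 were listed at 0 in all 6 libraries. Timm17b is the paralogue of Timm17a and Timm8a1 that of Timm8b, so these pairs gave no share to compare. RefSeq's GRCr8 list places Timm17b and Timm8a1 on the X chromosome, where 553 of 555 symbols of the table were listed at 0, against 2446 of 15018 symbols on the autosomes. Their 0 is thus shared with nearly all symbols placed there. Timm9, the partner of Timm10, stood on 4 rows, all at 0, and 291 of the 599 symbols that stood on several rows were listed at 0 throughout. Timm8a2 stood on 1 row and is placed on chromosome 15, so neither description applies to its 0. How reads that fit several rows were counted is not given in the sources used here. Timm50, Tomm5 and Tomm6 are not among the 30 matching symbols of the count table, so they were not analysed here.

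Some tested members overlap another annotated gene in RefSeq's GRCr8 list: Pmpca overlaps Inpp5e, Timm29 overlaps Yipf2, Timm8b overlaps Nkapd1, Tomm20 overlaps Rbm34, Tomm34 overlaps Stk4, Tomm40l overlaps Nr1i3, and Timm23 overlaps an uncharacterized locus. The use of strand in counting is not given in the sources used here, so reads of such neighbours may not have been told apart. The same list names pseudogenes of 8 members, with 8 for Timm23 and 4 for Tomm7, and the levels of those genes are uncertain to that extent.

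Other genes of import, from a list of 19 partners, did not pass the test either. Of 16 in the table, 12 were tested and 0 had an adjusted or an unadjusted p under 0.05 in edgeR. The median log2 fold change was -0.19, with 10 of 12 below 0, and it was -0.10 without control library 1. The shares over all symbols were 47.9% below 0 and 8.10% with an unadjusted p under 0.05 in edgeR. Dnajc15, a J-domain protein of the motor, was at 215, 139 and 145 CPM in control and 120, 134 and 140 CPM in doxorubicin libraries, a log2 change of -0.34 (SE 0.20) that became -0.10 without control library 1. Hspe1, the matrix co-chaperonin, showed a log2 change of -0.24 (SE 0.20), and Mipep, another presequence peptidase, one of -0.23 (SE 0.19). They were, in the fit without control library 1, -0.07 and -0.33. Dnlz, Mtch2 and Aifm1, which anchors Chchd4, were listed at 0 in all libraries, and Xpnpep3, at most 23 counts, did not pass the filter. Dnlz and Mtch2 stood on 2 rows each. These zeros, and that of Alas2 above, need the same care as those of the members and were not taken as absence of the transcript.

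Transcripts of the proteins that these routes import were set beside the machinery. In the list of 15 tested presequence proteins, 13 were below 0, with a median log2 fold change of -0.25 (-0.18 without control library 1), and 2 had an unadjusted p under 0.05 in edgeR, against 47.9% below 0 and 8.10% under that p over all symbols. Groups did not overlap for 8 of the 15, each lower in doxorubicin, against 7.06% of all symbols in that direction. Uqcrc1, a core subunit of respiratory complex III that belongs to the same protein family as the processing peptidase, was at 3427, 2243 and 2262 CPM in control and 1702, 1815 and 1506 CPM in doxorubicin libraries. Its fitted log2 change was -0.66 (SE 0.21, adjusted p 0.360 in edgeR), and -0.42 without control library 1. Uqcrfs1, the iron-sulfur subunit of that complex, showed a log2 change of -0.46 (SE 0.20), and Atp5f1c, the gamma subunit of the ATP synthase, one of -0.35 (SE 0.18), and neither overlapped between the groups. Without control library 1 these were -0.29 and -0.24.

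Of 11 tested clients of the disulfide relay, 10 were below 0, with a median of -0.33 (-0.21 without control library 1), and 2 had an unadjusted p under 0.05 in edgeR. The shares over all symbols were 47.9% and 8.10%, and control library 1 was the highest control for 10 of these 11 genes. Chchd10, a small protein of the intermembrane space, was at 3850, 2067 and 2242 CPM in control and 1489, 2185 and 1681 CPM in doxorubicin libraries. Its log2 fold change of -0.61 (SE 0.25, adjusted p 0.534 in edgeR) became -0.27 without control library 1. Ndufa8, a complex I subunit, was at 491, 352 and 357 CPM in control and 295, 320 and 265 CPM in doxorubicin libraries, with no overlap and a log2 change of -0.45 (SE 0.19). Ndufb7, another complex I subunit, showed a log2 change of -0.47 (SE 0.22), and its groups overlapped. Ndufa8 was at -0.27 and Ndufb7 at -0.28 without control library 1.

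The carrier and barrel clients were few. Slc25a20, the carnitine-acylcarnitine carrier that brings fatty acids into the matrix, was at 423, 425 and 413 CPM in control and 298, 330 and 330 CPM in doxorubicin libraries. The groups were well apart, and the log2 change came to -0.40 (SE 0.17, adjusted p 0.558 in edgeR) and -0.39 without control library 1. Slc25a4, the main ADP/ATP carrier of heart, was at 8943, 9502 and 8993 CPM in control and 9062, 9142 and 8617 CPM in doxorubicin libraries, a log2 change of -0.03 (SE 0.17). Slc25a11, the oxoglutarate carrier, had one of -0.16 (SE 0.18), and Slc25a5 was listed at 0, which needs the same care as the zeros above. Vdac1, the main outer membrane pore, was at 1506, 1566 and 1432 CPM in control and 1121, 1273 and 1197 CPM in doxorubicin libraries, a log2 change of -0.33 (SE 0.17, adjusted p 0.664 in edgeR) with no overlap. Vdac2 showed a log2 change of -0.20 (SE 0.17), also with no overlap, and Vdac3, whose groups overlapped, one of -0.17 (SE 0.18). The groups thus did not overlap for 2 of the 3 barrel clients, against 7.06% of all symbols in that direction. Without control library 1 the log2 change was -0.32 for Vdac1, -0.14 for Vdac2, -0.08 for Vdac3 and -0.01 for Slc25a11. No client passed the adjusted threshold, and whether the clients differ from the machinery was not tested.

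**Figure D4:**
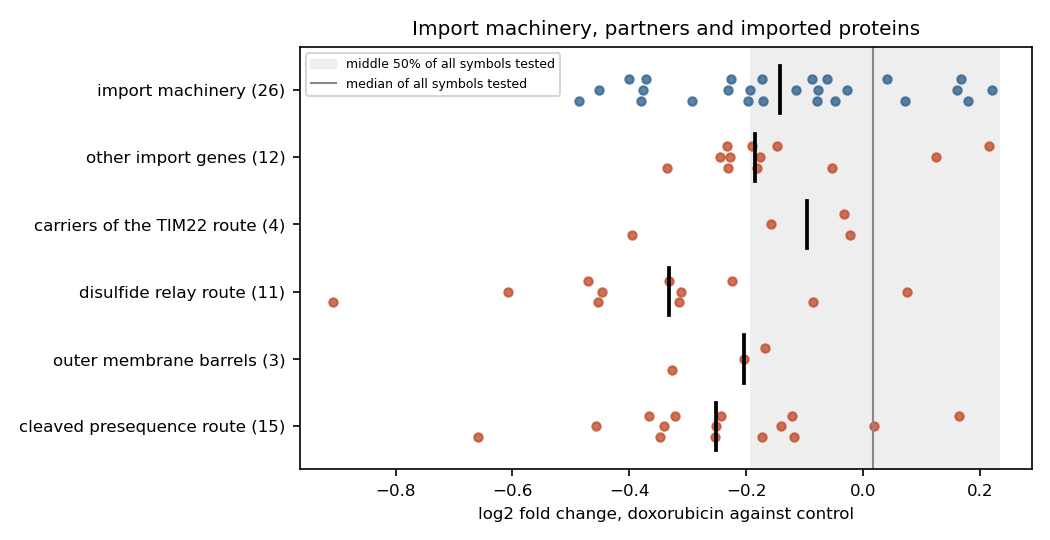
Log2 fold change of each tested gene (points) in the import machinery, its partners and 4 lists of imported proteins, with the median of each list as a black bar, the number tested in parentheses, and the median and interquartile range of all 9205 symbols in grey. The median of each list lies below that of all symbols, from -0.33 for the disulfide relay clients to -0.09 for the carriers.

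The member promoters with an NRF1 match belonged to 6 tested members, with a median log2 fold change of -0.17, which was also -0.17 for the 18 tested members without one. For the Ets motif the medians were -0.11 over 11 members with a match and -0.17 over 13 without.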

How the data were processed

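Polyadenylated RNA of 6 rat hearts, 3 per group, was sequenced, and the authors deposited raw read counts per gene row with no normalization. Per the submitters' processing notes FastQC, Trimmomatic, STAR and HTSeq were used with the build mRatBN7.2, and versions, counting mode, strand setting and annotation release are not given in the sources used here. The 18473 rows were summed to 17487 symbols. Doxorubicin was compared with control by edgeR 4.0.16 in R 4.3.3 (quasi-likelihood F test, TMM factors, robust dispersion, filterByExpr with a minimum count of 10 and a minimum total of 15), fitted on all 9205 symbols that passed, which held 99.7% to 99.8% of the counts. Benjamini-Hochberg adjusted p-values were called at 0.05. The standard error is the absolute log2 fold change divided by the square root of F, and intervals are at the 95% level. They rest on the spread between animals and on counting error, with the dispersion of each symbol moderated by that of all symbols. The smallest standard error over all symbols tested was 0.165, so they are not the spread of a single gene between these rats. Counting intervals and the floor of 3 counts cover counting error only. DESeq2 1.42.0, limma 3.58.1 (voom) and other settings were alternatives. Symbols were matched to RefSeq lists of GRCr8 for names, neighbours and promoters, and no coordinates of the files' build are given. Members and lists were chosen with earlier results of these data known. Every tested member is named, those among the 8 smallest p-values or largest fold changes with all values, along with the 3 smallest p-values of each other list. Permutation tests and figures were made in Python 3.11.15 (scipy 1.17.1, matplotlib 3.10.9).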

Additional observations from a re-analysis of the deposited data

How the results depend on the processing

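The count of members past the adjusted threshold was 0 under all 18 alternatives, and edgeR's smallest adjusted p over the members ranged from 0.463 to 0.999 when 1 library was left out. At an unadjusted p under 0.05 there were 0 members, but 1 (Pam16) with upper-quartile factors, 2 (Pam16 and Timm13) with no filter, and 0 to 3 when 1 library was left out, the 3 being Pam16, Timm10 and Timm13 without control library 2. Over all symbols, 746 of 9205 were under that p with upper-quartile factors, 978 of 13050 with no filter and 876 of 9425 without control library 2. The median over members ran from -0.21 without doxorubicin library 1 to -0.03 without control library 1. The number of members below 0 ranged from 14 to 21 over the alternatives. The replicate number as a block gave 0 members at either threshold and a median of -0.14. Same-numbered libraries are different animals and their deviations correlated at -0.19 to 0.02, so the block rests on a number only. The difference in the Tomm40l share was 2.11 percentage points, and it ran from -0.67 to 4.46 when 1 library was left out. The difference in the Grpel2 share was 0.98 points, and it ran from 0.27 to 1.66. The other 2 planned shares, of Timm17a and of Timm8a1, could not be compared because a partner was at 0. Of the 26 tested members, 11 changed sign under at least 1 alternative. With library size only, Pmpca became 0.062, Samm50 0.015, Timm10b 0.0064, Timm23 0.026, Tomm22 0.048 and Tomm70 0.014, all under the median of all symbols there, 0.10. When 1 library was left out, the log2 change ranged from -0.13 to 0.30 for Gfer, from -0.25 to 0.0050 for Grpel1, from -0.36 to 0.029 for Mtx2, from -0.14 to 0.065 for Pmpca, from -0.31 to 0.069 for Samm50, from -0.24 to 0.055 for Timm10b, from -0.096 to 0.0033 for Timm23, from -0.14 to 0.11 for Tomm22, from -0.11 to 0.22 for Tomm40l, from -0.013 to 0.32 for Tomm7 and from -0.19 to 0.031 for Tomm70. The other 15 tested members kept their sign under every alternative. The cause of these changes was not tested.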
